A study of Mus musculus with 20 samples.

Results

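A set of 10 chemokine genes, of the 55421 genes in the deposited count table, was followed across 20 mouse livers. They were Ccl2, Ccl4, Ccl6, Ccl9, Cxcl1, Cxcl9, Cxcl10, Cxcl12, Cxcl13 and Cxcl16, matched by gene symbol, and all 10 were among the 22867 genes tested. The list was chosen from results of these same libraries, with Ccl9 as its leading gene, so the values of Ccl9 in every contrast are given as a description without a test. All mice were wildtype C57BL/6, labelled female, and received a retro-orbital injection at 6 months of age of an AAV8 vector in which the hepatocyte-specific Tbg promoter drives SaCas9 and the U6 promoter drives a guide RNA. The guide was directed against Hira (HIRA-guide livers) or against Rosa26, a neutral site (Rosa26 controls), so the controls carried the same virus and nuclease. Livers were harvested 3 weeks or 6 months after injection, with 5 livers in each of the 4 groups. HIRA is a chaperone that places the histone variant H3.3 in chromatin. The nuclease is expressed in hepatocytes, whereas the RNA came from whole liver, in which fewer cells of a type and less RNA per cell cannot be told apart.

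Chemokines are small secreted proteins that direct the movement of leukocytes by binding G protein-coupled receptors. They are classed by the spacing of their first conserved cysteines, which stand next to each other in the CC class and are separated by another residue in the CXC class. In the liver they are made by hepatocytes, Kupffer cells, endothelial cells and stellate cells. Many are induced by NF-kappaB and interferon signalling, and Cxcl12 is known as a constitutive member.

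The coding bases around these cysteines are shown because they define both classes, with the cysteine codons in capitals. Each line is 30 bases of a GENCODE M21 transcript, 5′ to 3′ on the coding strand, with GRCm38 coordinates, and each lies within an exon of the coding sequence.
Ccl2, chr11:82036494-82036523, plus strand, exon 2 of 3: gccccactcaccTGCTGCtactcattcacc
Ccl4, chr11:83663470-83663499, plus strand, exon 2 of 3: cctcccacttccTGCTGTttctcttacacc
Ccl6, chr11:83589374-83589403, minus strand, exon 3 of 4: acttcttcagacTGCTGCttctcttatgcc
Ccl9, chr11:83575914-83575943, minus strand, exon 3 of 4: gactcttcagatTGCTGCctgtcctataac
Cxcl1, chr5:90891487-90891516, plus strand, exon 2 of 4: gagctgcgcTGTcagTGCctgcagaccatg
Cxcl9, chr5:92326830-92326859, minus strand, exon 2 of 4: aatgcacgaTGCtccTGCatcagcaccagc
Cxcl10, chr5:92348169-92348198, minus strand, exon 2 of 4: acggtccgcTGCaacTGCatccatatcgat
Cxcl12, chr6:117171499-117171528, plus strand, exon 2 of 4: agctaccgaTGCcccTGCcggttcttcgag
Cxcl13, chr5:95958655-95958684, plus strand, exon 2 of 4: aacttaaaaTGTaggTGTtctggagtgatt
Cxcl16, chr11:70459115-70459144, minus strand, exon 2 of 5: gctggaagtTGTtctTGTgatcgtaccatt
The windows of Ccl6 and Ccl9, which are neighbours on chromosome 11, carry the cysteine codons in exon 3, and the other 8 carry them in exon 2. Over the coding sequence, Ccl6 and Ccl9 were identical at 64.8% of aligned positions, the highest value among the pairs of members. Their longest shared run in the transcripts was 25 bases.

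Total counts per library ranged from 19916430 to 24079736. Hira had 128 to 171 counts in the Rosa26 controls at 3 weeks and 87 to 127 in the HIRA-guide livers, -0.48 on the log2 scale (edgeR adjusted p 0.197). At 6 months the ranges overlapped, with 105 to 157 and 109 to 136 counts (log2 -0.10, edgeR adjusted p 0.794), so the transcript level did not separate the groups at that time. The paper reports from a western blot that HIRA protein was lost with this guide, which RNA counts do not measure. HIRA-guide library 5 at 6 months had 9 counts of Xist and 2041 of Y-chromosome genes, against 6286 to 8436 and 0 to 13 in the other 19 libraries, which goes against its label. It was also the lowest of its group for 7 of the 10 chemokines. Library 3 was the highest of its group for 7 of 10 in both Rosa26 groups and for 6 of 10 in the HIRA-guide livers at 6 months. The tallies of members above and below 0 are given with and without these libraries. The tissue is labelled liver, and its 5 hepatocyte markers summed to between 79216 and 157660 CPM. None of 46 marker genes of 9 cell types was called by edgeR in any of the 6 contrasts, beside 0% to 2.85% of all genes. DESeq2 called at most 3, in the effect averaged over both times, where it called 5.58% of all genes. Of the markers limma-voom called 0, beside 0 to 632 of 22867 genes. At an unadjusted p under 0.05 there were 1 to 12, with 12 of 46 in the effect averaged over both times, beside 16.6% of all genes, and 10 of 46 at 3 weeks, beside 8.87%. The labels do not say that equal library numbers link the groups.

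Per length of exon, Cxcl12 and Ccl9 were the most abundant of the 10 in each of the 20 libraries. Levels were set between genes as CPM, TMM-scaled counts relative to library size, per kilobase (CPM per kb). Averaged over the 20 libraries, they were 54.7 for Cxcl12, 29.4 for Ccl9, 9.61 for Cxcl1, 8.38 for Cxcl9 and 6.46 for Ccl6. Lower in the order stood Cxcl10 with 3.81 CPM per kb, Cxcl16 with 3.57, Cxcl13 with 2.90, Ccl2 with 1.72 and Ccl4 with 1.01. Neighbours in the lower part were not all separated. Cxcl1 exceeded Cxcl9 in 9 of 20 libraries, Cxcl10 exceeded Cxcl16 in 7 and Cxcl13 exceeded Ccl2 in 13, so these pairs did not keep the order of their means in every liver. The deposited FPKM values gave the same order.

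**Figure D1:**
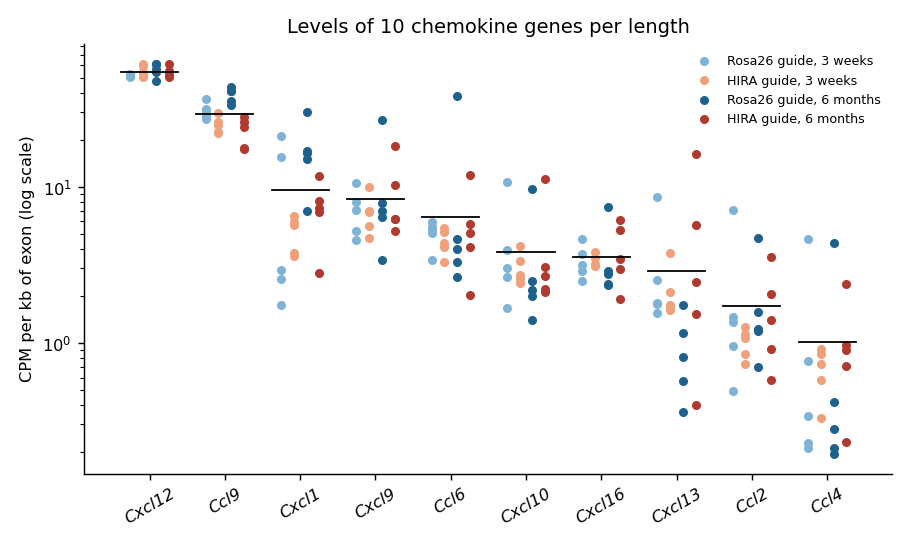
Levels of the 10 chemokine genes in CPM per kb of exon on a log axis, with a point for each of the 20 libraries coloured by group and a line at the mean over all libraries. Cxcl12 and Ccl9 lie above the other genes at 54.7 and 29.4, and the points of Cxcl1, Ccl6, Cxcl13, Ccl2 and Ccl4 each spread over more than 10-fold.

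Ccl9 (ENSMUSG00000019122.8, chr11:83572919-83578636, minus strand) encodes a CC chemokine that binds the receptor CCR1 on myeloid cells. At 6 months it had 2532, 2177, 2914, 2698 and 2905 counts in libraries 1 to 5 of the Rosa26 controls. The HIRA-guide livers of that time had 1362, 1740, 1765, 1737 and 1058 counts. All 5 HIRA-guide livers were below all 5 controls. Groups without overlap, in either direction, were found for 3.15% of the genes tested at 6 months. The means were 119 ± 13.3 CPM (SD, n = 5) in controls and 68.9 ± 14.6 CPM (SD, n = 5) in HIRA-guide livers. The log2 fold change was -0.78 ± 0.13 (SE), a ratio of 0.581. This contrast is among those the choice of Ccl9 rested on, so no p-value is given for it. Without HIRA-guide library 5 the value was -0.71, and without all 3 of the high libraries numbered 3 it was -0.79.

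At 3 weeks the groups overlapped in Ccl9. Its counts were 1700, 2219, 2080, 1838 and 2006 in the controls and 1721, 1453, 1389, 2076 and 1585 in the HIRA-guide livers. The means were 93.9 ± 10.9 and 76.2 ± 9.65 CPM (SD, n = 5). The log2 fold change was -0.30 ± 0.13 (SE). From 3 weeks to 6 months the log2 fold change was 0.34 ± 0.13 (SE) in the controls and -0.15 ± 0.13 (SE) in the HIRA-guide livers. Leaving out each library in turn gave 0.29 to 0.40 in the controls and -0.23 to -0.07 in the HIRA-guide livers. The guide effect at 6 months minus that at 3 weeks was -0.48 ± 0.18 (SE). The effect averaged over both times, which uses the libraries of 3 weeks too, was also among the values Ccl9 was chosen on, so none of these values is tested or independent of the choice.

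**Figure D2:**
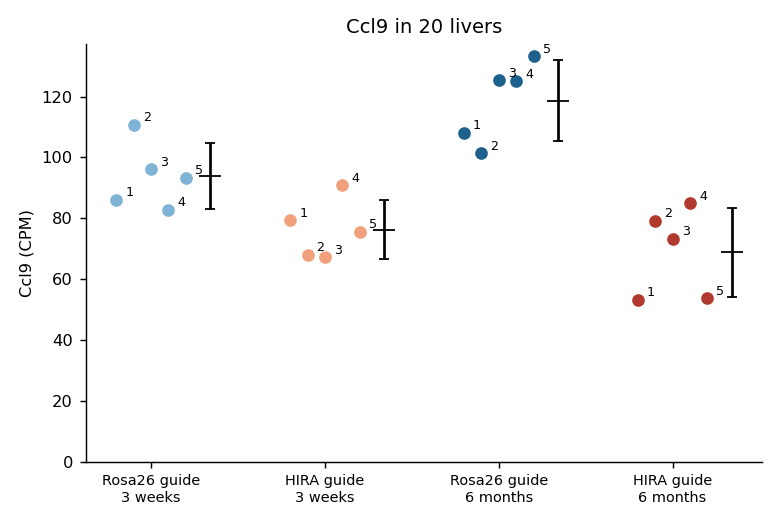
Ccl9 in CPM in each of the 20 livers, numbered within its group, with the group mean and SD in black beside the points. At 6 months the HIRA-guide livers lie between 53.3 and 84.9 CPM and the Rosa26 controls between 101 and 133, while the groups overlap at 3 weeks.

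Markers of other cell types were read beside Ccl9. Of 8 Kupffer cell and macrophage markers, 7 had a log2 fold change below 0 at 6 months, and none of the 8 was called by edgeR. Their summed level was 219 to 1576 CPM in the Rosa26 controls of that time and 136 to 960 in the HIRA-guide livers. The medians were 260 and 415 CPM. Control library 3 held the highest sum of its group, and the next was 392 CPM in library 1. The marker fold changes were not computed without control library 3. All 8 markers were detected, and Clec4f, a receptor particular to Kupffer cells, had 51419 counts over the 20 libraries. Of 5 hepatocyte markers, 4 had a log2 fold change above 0 at 6 months, and none was called. Markers of T and NK cells, sinusoidal endothelium and stellate cells were above 0 for 5 of 5 genes each, with medians of 0.48, 0.32 and 0.48. Of 5 neutrophil markers 3 were below 0, with a median of -0.64, and of 4 monocyte markers 2 were, with a median of -0.03. None of the genes in these 5 lists was called. The part of cell composition in the level of Ccl9 was not tested.

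The 250 bases before the start of Ccl9 are shown because Ccl9 was the only member whose groups did not overlap, with matches to NF-kappaB and TATA box motifs in capitals. The bases are from RefSeq on GRCm38.p6, chr11:83578637-83578886, minus strand, written in the direction of transcription.
Ccl9 upstream: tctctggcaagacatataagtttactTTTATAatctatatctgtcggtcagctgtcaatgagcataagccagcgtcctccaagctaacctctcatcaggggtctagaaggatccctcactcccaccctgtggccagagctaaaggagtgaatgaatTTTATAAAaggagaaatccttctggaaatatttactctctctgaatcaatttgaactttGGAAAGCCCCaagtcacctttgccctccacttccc
The first capital stretch holds TATAAA on the opposite strand, and the second holds it on both strands with overlapping letters. The third is a kappaB motif on the opposite strand. Of 32851 RefSeq promoters of the same 250 bases, 3.9% held the kappaB motif and 12.4% held TATAAA on either strand. Promoters of 7 of the 10 members were matched. Cxcl1 and Cxcl10, known NF-kappaB and interferon targets, are shown for comparison in windows of 30 bases with the motif in capitals.
Cxcl1 kappaB, chr5:90891164-90891193: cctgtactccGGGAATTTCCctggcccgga
Cxcl10 kappaB, chr5:92348973-92349002: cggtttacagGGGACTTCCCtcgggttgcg
Cxcl10 kappaB, chr5:92349029-92349058: agaggggagaGGGAAATTCCaagttcatgg
Cxcl10 ISRE, chr5:92349083-92349112: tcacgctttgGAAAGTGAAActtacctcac
The interferon-stimulated response element (ISRE) was searched as GAAANNGAAA on both strands and was present in 2.98% of promoters. A match describes letters in the window and not a bound factor.

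The other CC chemokines did not pass the test at either time. Ccl6 (ENSMUSG00000018927.3, chr11:83587882-83593087, minus strand) also binds CCR1. At 6 months it had 196, 128, 1586, 154 and 104 counts in the controls and 264, 162, 218, 438 and 72 in the HIRA-guide livers. Control library 3 stood far above the other 4, and the groups overlapped. The fitted log2 difference, -0.87 ± 0.57 (SE, edgeR adjusted p 0.499), became 0.66 without that library. At 3 weeks the 10 libraries lay between 127 and 232 counts, and the log2 guide effect was -0.17 ± 0.58 (SE, edgeR adjusted p 0.975).

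Ccl2 (ENSMUSG00000035385.5), the ligand of CCR2 that recruits monocytes, had 33, 31, 176, 24 and 12 counts in the controls at 3 weeks and 21, 26, 27, 19 and 30 in the HIRA-guide livers. Its log2 difference, -1.18 ± 0.62 (SE, edgeR adjusted p 0.626), rested on control library 3 and was -0.07 without it. At 6 months the counts were 32, 17, 125, 30 and 39 against 41, 23, 97, 48 and 13, which gave a log2 difference of -0.14 ± 0.60 (SE, edgeR adjusted p 0.938), or 0.54 without control library 3, -0.61 without HIRA-guide library 3 and 0.07 without HIRA-guide library 5. Library 3 was the highest in both groups of that time. Ccl4 (ENSMUSG00000018930.3), which attracts monocytes and T cells, was the least abundant per length. It had 3 to 13 counts in every library except the 3 high libraries numbered 3, which had 66, 67 and 38. Fitted log2 differences were -0.86 ± 0.90 (SE, edgeR adjusted p 0.871) at 3 weeks and -0.07 ± 0.86 (SE, edgeR adjusted p 0.99) at 6 months. It was 0.81 at 3 weeks without control library 3 and 1.89 at 6 months without control library 3, or 0.17 without HIRA-guide library 5, so a single library set the sign at either time.

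Among the CXC chemokines, Cxcl1 (ENSMUSG00000029380.11, chr5:90891241-90893115, plus strand), which attracts neutrophils through CXCR2, had the lowest fitted value at 6 months. Its counts at that time were 306, 684, 662, 1221 and 670 in the controls and 134, 286, 332, 453 and 301 in the HIRA-guide livers. The groups overlapped only through the lowest control, library 1. The means were 32.1 ± 15.6 and 13.9 ± 6.04 CPM (SD, n = 5), and the log2 fold change of -1.21 ± 0.53 (SE) did not pass over all genes (edgeR adjusted p 0.273). Leaving out each library in turn gave log2 fold changes from -1.45 to -0.91. At 3 weeks the controls were split, with 65, 122 and 104 counts in libraries 1, 4 and 5 against 795 and 627 in libraries 2 and 3. The HIRA-guide livers lay between these, with 144 to 265 counts. On the log2 scale the guide effect was -0.78 ± 0.54 (SE, edgeR adjusted p 0.758), and -0.16 without control library 2.

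Cxcl9, Cxcl10 and Cxcl16 attract T cells, the first 2 through CXCR3 after induction by interferon gamma and the third through CXCR6. None of them differed between guides past the test. Cxcl9 (ENSMUSG00000029417.9) had 497, 219, 1892, 515 and 421 counts in the controls at 6 months and 477, 411, 1332, 633 and 311 in the HIRA-guide livers, which gave a log2 difference of -0.16 ± 0.42 (SE, edgeR adjusted p 0.907). Library 3 was the highest of both groups. Without control library 3 the value was 0.57, and without HIRA-guide library 3 it was -0.58. Cxcl10 (ENSMUSG00000034855.13) had 131, 68, 507, 106 and 98 counts in the controls at 6 months and 176, 109, 609, 124 and 94 in the HIRA-guide livers. Here too library 3 was alone above the other 4 in both groups, and the log2 fold change was 0.26 ± 0.55 (SE, edgeR adjusted p 0.879). Without HIRA-guide library 3 it was -0.51, and without control library 3 it was 1.07. Cxcl16 (ENSMUSG00000018920.11) had 196, 154, 524, 154 and 189 counts against 265, 197, 445, 329 and 113, which gave a log2 difference of 0.15 ± 0.30 (SE, edgeR adjusted p 0.88), or 0.60 without control library 3 and -0.07 without HIRA-guide library 3. At 3 weeks the log2 fold changes were -0.05 for Cxcl9 (edgeR adjusted p 0.997), -0.53 for Cxcl10 (0.873) and -0.005 for Cxcl16 (0.997). Without control library 3 of that time they were 0.14, 0.12 and 0.14. The exons of Cxcl10 overlap those of Art3 and the exons of Cxcl16 overlap those of Zmynd15 on the opposite strand, and strand use in the counting is not given, so reads of the overlapping parts cannot be told apart.

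Cxcl12 and Cxcl13 are homeostatic chemokines that act through CXCR4 on stem cells and lymphocytes and through CXCR5 on B cells. Cxcl12 (ENSMUSG00000061353.11, chr6:117168535-117181367, plus strand) varied least between livers. Its coefficient of variation within a group was 1.58 to 10.3%, and its group means lay between 425 and 461 CPM. Its guide effect on the log2 scale was 0.10 ± 0.08 (SE, edgeR adjusted p 0.821) at 3 weeks and -0.04 ± 0.08 (SE, edgeR adjusted p 0.861) at 6 months. Cxcl13 (ENSMUSG00000023078.6, chr5:95956951-95961068, plus strand) varied most of the 10 among the HIRA-guide livers at 6 months, with a coefficient of variation of 122%. Its counts were 22, 14, 47, 9 and 29 in the controls and 45, 143, 68, 380 and 9 in the HIRA-guide livers.

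In Cxcl13 counts at 6 months, HIRA-guide libraries 2, 3 and 4 exceeded every control, while library 5 equalled the lowest control with 9 counts. The log2 fold change was 2.47 ± 0.71 (SE), and it did not pass the test (edgeR adjusted p 0.0854). Without HIRA-guide library 5, the library whose sex-linked counts go against its label, it was 2.77 and passed (edgeR adjusted p 0.0288), and with DESeq2 on all libraries it was 2.48 and passed (adjusted p 0.0197). It did not pass with limma-voom (adjusted p 0.324) or without the 3 high libraries numbered 3 (3.02, edgeR adjusted p 0.0676), and the smallest value was 1.13, with log2(FPKM + 1). Without HIRA-guide library 4 it was 1.42 (edgeR adjusted p 0.244). At 3 weeks the counts were 57, 36, 214, 46 and 44 in the controls and 53, 43, 89, 44 and 39 in the HIRA-guide livers, which overlapped, and the log2 guide effect was -0.58 ± 0.66 (SE, edgeR adjusted p 0.89), or 0.19 without control library 3. The guide effects at the 2 times differed by 3.05 ± 0.97 (SE) on the log2 scale, with an unadjusted p of 0.00476 from edgeR and an edgeR adjusted p of 0.662, and without HIRA-guide library 4 of 6 months by 2.00. Kupffer cell and macrophage markers moved with Cxcl13 in the extreme livers. HIRA-guide libraries 4 and 5 had the highest and lowest sums of these markers of their group, 960 and 136 CPM, and their part in the result was not tested. Markers of B cells, the target cells of Cxcl13, had log2 fold changes above 0 for 4 of 4 genes both at 6 months (median 0.45) and at 3 weeks (median 0.74), and none was called.

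**Figure D3:**
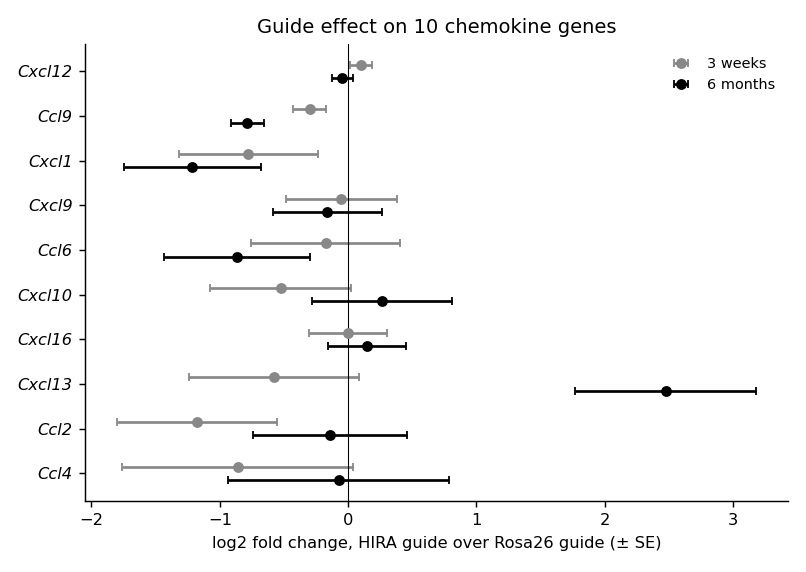
Log2 fold change of the HIRA guide over the Rosa26 guide for each of the 10 chemokine genes, at 3 weeks in grey and at 6 months in black, with bars of 1 SE from the edgeR fit. Ccl9 at 6 months sits at -0.78 with a short bar, Cxcl13 at 2.47 with a long bar, and Cxcl12 close to 0 at both times.

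Counted over the 10 members at an edgeR adjusted p under 0.05, 0 were called at 3 weeks, where 0.197% of all genes were called. At 6 months and in the effect averaged over both times, where 1.31% and 2.85% of all genes were called, the count was 1, and it was Ccl9. Both contrasts are among the values Ccl9 was chosen on, so its call is no test and nothing is read from it. Of the other 9 members edgeR called 0 in each of the 6 contrasts. At 6 months 2 of these 9 had an unadjusted p under 0.05, beside 15.5% of all genes. DESeq2 called 1, Cxcl13, beside 3.91% of all genes, and limma-voom called 0, beside 297 of 22867 genes. At 3 weeks 0 of the 9 had an unadjusted p under 0.05, beside 8.87% of all genes, and in the averaged effect 1 had, beside 16.6%. DESeq2 and limma-voom called 0 of the 9 in either. Of all genes DESeq2 called 0.997% at 3 weeks and 5.58% averaged, and limma-voom called 23 and 632 of 22867.

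The log2 fold changes of 9 of the 10 members were below 0 at 3 weeks, with a median of -0.41, beside 50.9% below 0 and a median of -0.01 over all genes tested. This tally rested on control library 3 of 3 weeks, without which 4 of 10 were below 0 and the median was 0.11. At 6 months 7 of 10 were below 0, with a median of -0.11, beside 45.7% and 0.03 over all genes. Without control library 3 of that time 3 of 10 were below 0 (median 0.59), without HIRA-guide library 3 it was 9 of 10 (median -0.59), and without HIRA-guide library 5 it was 5 of 10 (median 0.03). For the change of guide effect with time, 0 members and 0% of genes were called by edgeR, and 1 of the 9 members other than Ccl9 had an unadjusted p under 0.05, beside 6.62% of all genes. With time in the Rosa26 controls 0 members were called beside 0.324% of genes, with 1 of the 9 at an unadjusted p under 0.05 beside 12.8%. With time in the HIRA-guide livers 0 were called beside 0.0656%, with 0 of the 9 at an unadjusted p under 0.05 beside 8.95%. DESeq2 and limma-voom called 0 members in these 3 contrasts. Of all 22867 genes DESeq2 called 0%, 2.23% and 0.617% in them, and limma-voom called 0, 58 and 7. Groups without overlap were found for 1 member, Ccl9, at 6 months. There were 0 such members at 3 weeks, beside 2.69% of all genes, 0 with time in the controls, beside 3.5%, and 0 with time in the HIRA-guide livers, beside 1.47%. The largest fitted changes with time in the controls were those of Cxcl13, -1.79 ± 0.71 (SE, edgeR adjusted p 0.273), Ccl6, 1.06 ± 0.57 (SE, edgeR adjusted p 0.464), and Cxcl1, 0.97 ± 0.53 (SE, edgeR adjusted p 0.475). Each moved when a single control library was left out. Without library 3 of 3 weeks the value of Cxcl13 was -1.03, without library 3 of 6 months that of Ccl6 was -0.47, and without library 2 of 3 weeks that of Cxcl1 was 1.59.

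The remaining chemokines, their receptors and the signals upstream of them were read from lists chosen with earlier results of these data known. Of 26 other chemokines, 22 were tested. At 6 months 1 was higher and 0 were lower in the HIRA-guide livers, beside 1.31% of all genes called. The one that rose was Ccl25, the ligand of CCR9 best known from thymus and gut, from 4.13 to 6.36 CPM on average, a log2 difference of 0.62 ± 0.14 (SE, edgeR adjusted p 0.0281). It was also called in the averaged effect (0.46, edgeR adjusted p 0.0106), and its value at 3 weeks was 0.29 (edgeR adjusted p 0.534). These calls are not independent of the choice of the list, and their dependence on single libraries was not tested. No other gene of that list was called in any of the 6 contrasts by edgeR.

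All 22 chemokine receptors listed were tested, and 0 were called by edgeR in any contrast, with 2 to 4 at an unadjusted p under 0.05, at most 1 called by DESeq2 and 0 by limma-voom. Over all genes 0% to 2.85% were called by edgeR in these contrasts, 0% to 5.58% by DESeq2, and 0 to 632 of 22867 by limma-voom. An unadjusted p under 0.05 was found for 6.62% to 16.6% of all genes, so nothing is read from the count of receptors. Ccr1, the receptor of Ccl9 and Ccl6, averaged 1.91 CPM in the controls at 6 months and 0.325 in the HIRA-guide livers, a log2 difference of -2.51 ± 0.79 (SE, edgeR adjusted p 0.117). Cxcr2, the receptor of Cxcl1, stood at a log2 difference of -1.52 at 3 weeks (edgeR adjusted p 0.268) and -0.01 at 6 months (edgeR adjusted p 1.00). Cxcr5, the receptor of Cxcl13, stood at 0.84 (edgeR adjusted p 0.473) and 0.74 (0.28). Ccr1, Cxcr2 and Cxcr5 were named after their values were seen, as receptors of members. They had 319, 173 and 477 counts over the 20 libraries, and the part of single high libraries in their values was not tested. At 3 weeks Ccr1 averaged 0.349 CPM in the controls and 0.225 in the HIRA-guide livers. Of the most abundant receptors by counts, Ccr2 and Ackr2 had log2 fold changes at 6 months of -0.17 (edgeR adjusted p 0.894) and 0.14 (0.807). Of 21 inducers and signal genes, 0 were called by edgeR in any contrast, with 1 to 4 at an unadjusted p under 0.05, at most 1 called by DESeq2 and 0 by limma-voom, beside the same shares of all genes, and nothing is read from this count either. The 3 most abundant by counts, Stat3, Irf7 and Rela, had log2 fold changes at 6 months of -0.30 (edgeR adjusted p 0.50), 0.19 (0.764) and 0.18 (0.176).

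Within groups, several members deviated together in single livers. Deviations of log2 CPM from the group mean correlated over the 20 libraries at r = 0.907 for Ccl2 and Ccl4, 0.899 for Cxcl9 and Cxcl10 and 0.840 for Ccl6 and Cxcl16. These points share library, depth and tissue piece, and r is a description. Without the 3 high libraries numbered 3, over 17 libraries, they were 0.651, 0.779 and 0.843. Ccl4 and Cxcl10 went from 0.866 to 0.321, so most of that relation came from the 3 livers. Some leukocyte markers were also high in those livers, though not all in each. Neutrophil markers summed to 53.2 CPM in control library 3 at 3 weeks and 29.5 in control library 3 at 6 months, against group medians of 9.22 and 5.51, whereas HIRA-guide library 3 at 6 months was itself the median of its group with 9.75. Monocyte markers summed to 13.1 and 14.5 CPM in these libraries and to 17.7 in HIRA-guide library 3 at 6 months, against medians of 4.97, 4.94 and 4.74. T and NK cell markers summed to 18.37 and 19.91 CPM in both libraries of 6 months, the highest of their groups, and to 3.70 in control library 3 at 3 weeks, the median of its group. Kupffer cell and macrophage markers summed to 508 CPM in control library 3 at 3 weeks and to 1576 in control library 3 at 6 months. The medians of those groups were 405 and 260. In HIRA-guide library 3 at 6 months the sum was 432, against a median of 415. The part of these markers in the chemokine values was not tested.

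**Figure D4:**
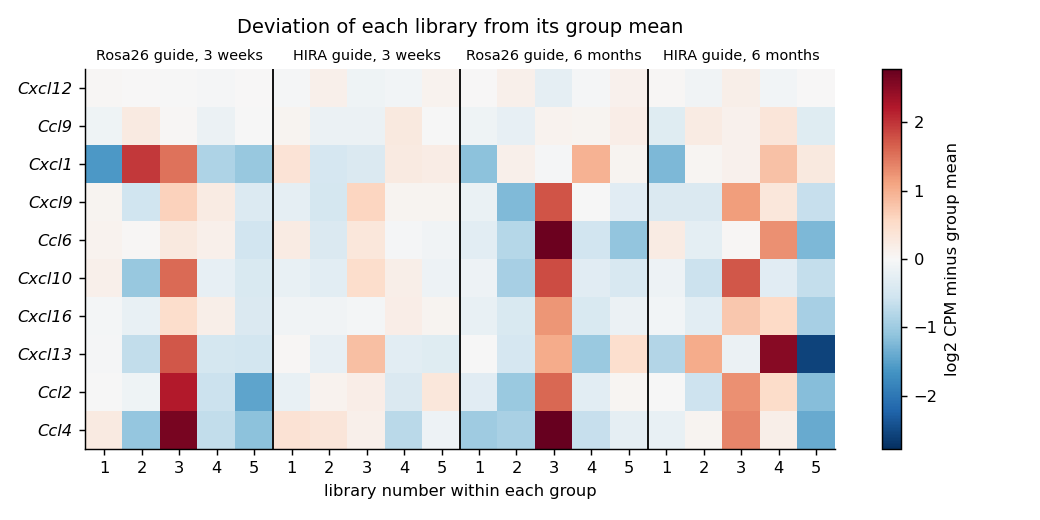
Log2 CPM of each chemokine gene minus the mean of its group, for each of the 20 libraries, numbered within the 4 groups. Library 3 is red for most genes in the Rosa26 controls of both times and in the HIRA-guide livers at 6 months, and library 5 of the last group is blue, while the rows of Cxcl12 and Ccl9 are pale throughout.

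The relation to Kupffer cell markers differed in size among the members. Over the 20 libraries, the group-centred correlation with the summed level of 8 such markers was 0.958 for Ccl6, 0.858 for Cxcl16, 0.759 for Cxcl9 and 0.727 for Cxcl13. It was 0.362 for Ccl9, -0.02 for Cxcl1 and -0.62 for Cxcl12. Other leukocyte markers gave high values too. With the monocyte markers they were 0.520 for Ccl6, 0.852 for Cxcl16, 0.783 for Cxcl9 and 0.446 for Cxcl13. With the T and NK cell markers they were 0.726, 0.832, 0.770 and 0.630. Cxcl10, Ccl2 and Ccl4 stood at 0.909, 0.850 and 0.851 with monocyte markers and at 0.606, 0.629 and 0.671 with Kupffer cell markers. The differences between these values were not tested.

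**Figure D5:**
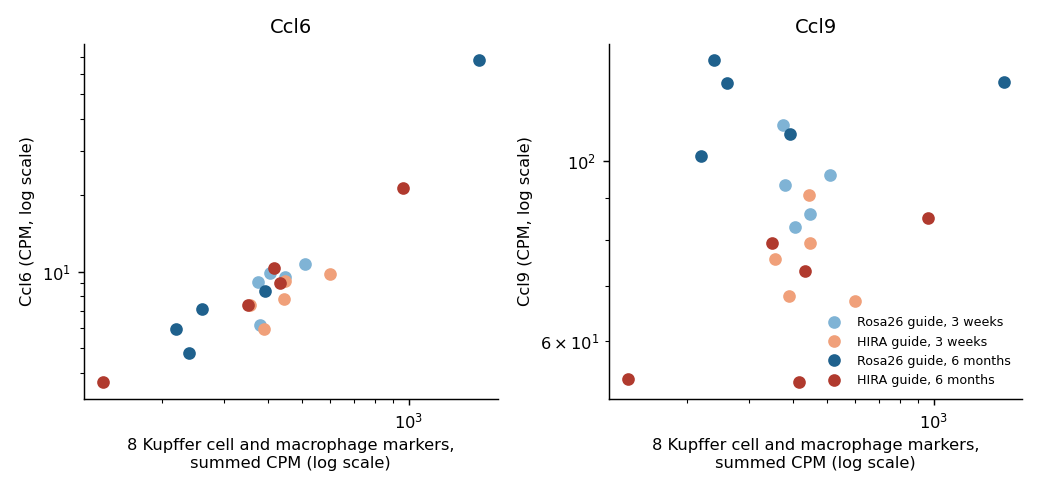
Ccl6 on the left and Ccl9 on the right, in CPM, against the summed CPM of 8 Kupffer cell and macrophage markers, both axes on a log scale, with a point for each library coloured by group. Ccl6 follows the marker sum from 136 to 1576 CPM, and Ccl9 shows no such order.

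The genes whose within-group pattern was most like that of Ccl9 were not chemokines. Among 12902 genes with a mean of at least 1 CPM, the highest group-centred correlations over the 20 libraries were those of AC115752.1 (r = 0.834), an unnamed gene model, Borcs7 (0.833), Aldh1l1 (0.831) and Tm7sf3 (0.830). Aldh1l1 encodes an enzyme of folate metabolism that is abundant in hepatocytes. The order was not stable. By Spearman's rho these 4 genes ranked 11, 2, 4 and 19, and without HIRA-guide library 5 of 6 months they ranked 21, 19, 10 and 2. Of the other members, Cxcl1 ranked 498 (r = 0.571), Cxcl13 ranked 654 (0.536) and Cxcl16 ranked 1538 (0.404), and Cxcl12 ranked 9433 (-0.26). Without HIRA-guide library 5 of 6 months these members ranked 214 (0.670), 1661 (0.384), 3017 (0.242) and 10026 (-0.27).

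Genes beside Ccl9 on chromosome 11 were read at 6 months. On the log2 scale Taf15 differed by -0.18 between guides (edgeR adjusted p 0.307), Ccl5 of 0.21 (0.898) and Ccl3 of 0.22 (0.929). With Ccl6 at -0.87 (0.499), Ccl4 at -0.07 (0.99) and Heatr9 at 1.22 (0.519), none of the 6 tested genes around Ccl9 was called by edgeR at that time.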

How the data were processed

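Polyadenylated RNA from 20 whole livers was sequenced by the authors, 5 libraries in each of 4 groups given by the sample titles. The deposited values were raw counts per gene, whole numbers that the authors obtained after alignment to mm10 with STAR. The labels list HTSeq and Cufflinks and the study's methods name HOMER, and the strand setting is not given in the sources used here. The authors also deposited FPKM values, used here only as an alternative. Genes with at least 10 counts in all were fitted with edgeR 4.0.16 (quasi-likelihood test, TMM, 20 libraries, a mean for each group) in R 4.3.3, with Benjamini-Hochberg adjustment over all 22867 genes and calls at an adjusted p under 0.05. Log2 CPM used a prior count of 2. DESeq2 1.42.0 and limma 3.58.1 (voom, and log2(FPKM + 1) or log2(FPKM + 0.1)) were alternatives, with other normalization, filters, fewer libraries and a replicate block. The test was checked on simulated data.

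The members and lists were chosen with earlier results of these data known. All members were named in every contrast, together with called genes of the lists or their 3 most abundant ones, Hira, and the 5 genes most like Ccl9, of which some items are not reported here. Leaving out 3 libraries numbered 3 together was chosen after seeing the data. Deposited replicates are different mice per the labels, and no 2 libraries were identical. At 19916430 to 24079736 counts per library, Ccl4 was counted 3 to 67 times, which limits its precision.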

Additional observations from a re-analysis of the deposited data

Results flagged for a closer look

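Of 40 groups of 5 libraries (10 members in 4 groups), 5 had a highest library beyond Dixon's 95% critical value of 0.71. Chance would give about 2, on the high or low side, if the 40 groups were independent. The members share libraries, so the 5 are not set against that number. All 5 cases were of libraries numbered 3. Ccl4 reached 1.573 log2 CPM (67 counts, against 3 to 6 in the others) in the Rosa26 controls at 6 months. In the same liver Ccl6 reached 6.094 log2 CPM (1586 counts, against 104 to 196) and Cxcl16 reached 4.501 log2 CPM (524 counts, against 154 to 196). Cxcl10 reached 4.664 log2 CPM (609 counts, against 94 to 176) in the HIRA-guide livers at 6 months, and Cxcl13 reached 3.319 log2 CPM (214 counts, against 36 to 57) in the Rosa26 controls at 3 weeks.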

How the results depend on the processing

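The number of members called by the main test was 1 at 6 months, 1 for the averaged effect and 0 in the other 4 contrasts. At 6 months it was 2 with DESeq2 (895 of all genes), 0 with only the libraries of the contrast (where 0 of 20832 genes were called, so this 0 says nothing of the members), 0 with log2(FPKM + 1) (222 of all genes), 0 with an absolute log2 fold change above 1, and 1 to 2 when each library was left out in turn, with 2 without HIRA-guide library 5 (395 of all genes). For the averaged effect it was 0 with log2(FPKM + 1) or log2(FPKM + 0.1) (516 of all genes in each) and 0 with the fold threshold. These counts turn on Ccl9, which was chosen on both contrasts, so they say nothing of how stable it is, and on Cxcl13, the second gene where the count was 2. The cause of the changes was not tested. Among all genes, calls ranged from 4 to 228 at 3 weeks, 0 to 895 at 6 months, 411 to 1277 averaged, 1 to 511 with time in controls, 5 to 141 with time in HIRA-guide livers and 0 to 1 for the difference between times, mostly highest with DESeq2. With the replicate block the members called were 1 at 6 months, 1 averaged and 0 otherwise, and the block changed no call. Equal numbers were not taken as pairs, since only 8 of 20 same-numbered pairs correlated above 0.1 (range -0.309 to 0.335) and 5 of 20 libraries correlated best with their own number. The 3 highest, 0.335, 0.296 and 0.295, were all of libraries numbered 3, of which 3 of 4 were the highest of their group for most chemokines. The lowest counts of a member in a single library were those of Ccl4, Cxcl13 and Ccl2, with 3, 9 and 12.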
